A study of Mus musculus with 14 samples.

Results

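The respiratory chain genes described here are the nuclear genes of the 5 complexes of mitochondrial oxidative phosphorylation, measured in mouse cells at different stages of reprogramming. They were chosen by name: every gene whose symbol on the array begins with Nduf followed by a, b, c, s or v, with Uqcr, with Cox4 to Cox8 or with Atp5, together with Sdha, Sdhb, Sdhc and Sdhd. This gave 90 of the 18193 genes named on the arrays, and each was read from its brightest probe set. Another 8 symbols that fit the names sit only on probe sets shared by several genes and were not analysed here. The study measured mRNA on 14 Affymetrix expression arrays, 1 array per cell sample, and asked about the passage from partial to genuine induced pluripotent stem cells. All values are deposited log2 signals made by RMA, so a difference of 1 is a 2-fold difference.

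The 2i iPSCs came from clones 2B1 and 5C5 after culture in 2i, in which MEK and GSK3 are inhibited, and each clone has 1 array. The embryonic stem cells (ESCs) were male and grown with serum and leukemia inhibitory factor (LIF): 1 array holds Nanog-GFP cells of C57BL/6 background and 1 holds EBRTcH3 cells of 129sv background. Mouse embryonic fibroblasts (MEFs), C57BL/6 cells of mixed sex from Nanog-GFP transgenic embryos, gave 1 array and were grown without LIF. Their embryos were of 12.5 days per the sample title, and the series text gives a later day. The partial iPSCs were the same clones without 2i, female cells of C57BL/6 background in LIF and serum like the ESCs, again with 1 array per clone. A partial iPSC is a reprogrammed cell that divides like a stem cell without having reached the pluripotent state. The other 7 arrays were all of 2B1 partial iPSCs in LIF and serum: infected with retrovirus for Cnot1, Cnot2, Cnot3, the 3 Cnot genes together or Trim28, or carrying stably integrated Nanog or, for comparison, empty vector. Cnot1, Cnot2 and Cnot3 are subunits of the Ccr4-Not complex, which shortens mRNA tails, and Trim28 is a corepressor. Each clone and each ESC line stands for 1 cell line, the 2i cells differ from the partial cells in medium as well as in state, and the ESCs differ from them in sex, origin and, for EBRTcH3, strain, so these cannot be told apart.

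The respiratory chain passes electrons from NADH through complex I and from succinate through complex II to ubiquinone, then through complex III, cytochrome c and complex IV to oxygen. Complexes I, III and IV pump protons out of the mitochondrial matrix, and complex V, the ATP synthase, uses their return to make ATP. Several small subunits of complex IV exist in more than 1 form, encoded by separate genes, with a widely expressed form and a form found mainly in muscle, testis or another tissue. Pluripotent stem cells are known for relying on glycolysis alongside respiration.

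By the distributions of their values the arrays fell into 2 blocks, the first 7 and the 7 transduced ones. The blocks were treated as separately normalized, which the labels do not state, and comparisons were kept within a block. The first block's arrays had the same mean signal of 6.09. Pluripotency markers followed the labels: the summed level of Nanog, Zfp42, Sox2, Esrrb and Dppa5a was 15.10 to 15.16 in 2i iPSCs and 15.35 to 15.38 in ESCs, against 7.86 in MEFs and 7.79 to 7.98 in partial iPSCs. Pou5f1 and Sall4 were listed apart. Pou5f1 was highest in partial iPSCs, at 13.25 and 13.16, against 11.95 and 11.72 in 2i iPSCs, 12.42 and 12.27 in ESCs and 4.23 in MEFs. Sall4 had 8.87 and 9.07 in partial iPSCs, 12.10 and 12.24 in 2i iPSCs, 12.35 and 12.44 in ESCs and 4.36 in MEFs. The summed level of 6 fibroblast genes was 15.82 in MEFs, 12.96 to 13.14 in 2i iPSCs, 7.67 to 7.68 in ESCs and 11.36 to 11.91 in partial iPSCs. By this sum the 2i iPSCs stood above the partial iPSCs and far above the ESCs. In bulk RNA, fewer cells of a type and less RNA per cell cannot be told apart, and how much fibroblast-like RNA bears on the results below was not tested. Of the 90 respiratory chain genes, 87 were bright enough to test, meaning at least 2 of the 14 arrays reached the table's median of 5.42. The other 3 were dim: Ndufb4 had signals of 3.35 to 4.44 over all 14 arrays, Cox4i2, a form of Cox4 known from lung, had 4.57 to 5.35, and Cox8b, a heart and muscle form, had 4.55 to 5.25. Ndufb4 was read from 1 probe set, and the symbols Ndufb4b and Ndufb4c sit only on shared probe sets that were not analysed. Its dim signal is that of this probe set and need not mean little Ndufb4 mRNA.

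Across the first 7 arrays the respiratory chain genes varied little. The range from the lowest to the highest array had a median of 0.64 over the 87 tested genes, against 1.42 over all 12663 tested genes, and it was below 1 in 73 of them (83.9%), against 30.5% of all genes. The steadiest were Cox7a2l, which helps complexes III and IV join, with signals of 11.63 to 11.82, Cox4i1, the common form of subunit IV of complex IV, with 13.18 to 13.43, and Cox6a1 with 13.69 to 13.95. The range was at least 2 in 5 of the 87 genes, against 4084 of all 12663 tested genes. The 5 were Cox7b2 (5.52), Cox7a1 (5.06), Cox6b2 (3.83), Ndufaf6 (2.12) and Cox7c (2.05). All but Ndufaf6, an assembly factor of complex I, belong to complex IV, and 3 of the 5 are tissue forms or paralogs of a common subunit. RMA signals of different probe sets are not on a shared scale, so signals are set side by side only within a gene.

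**Figure D1:**
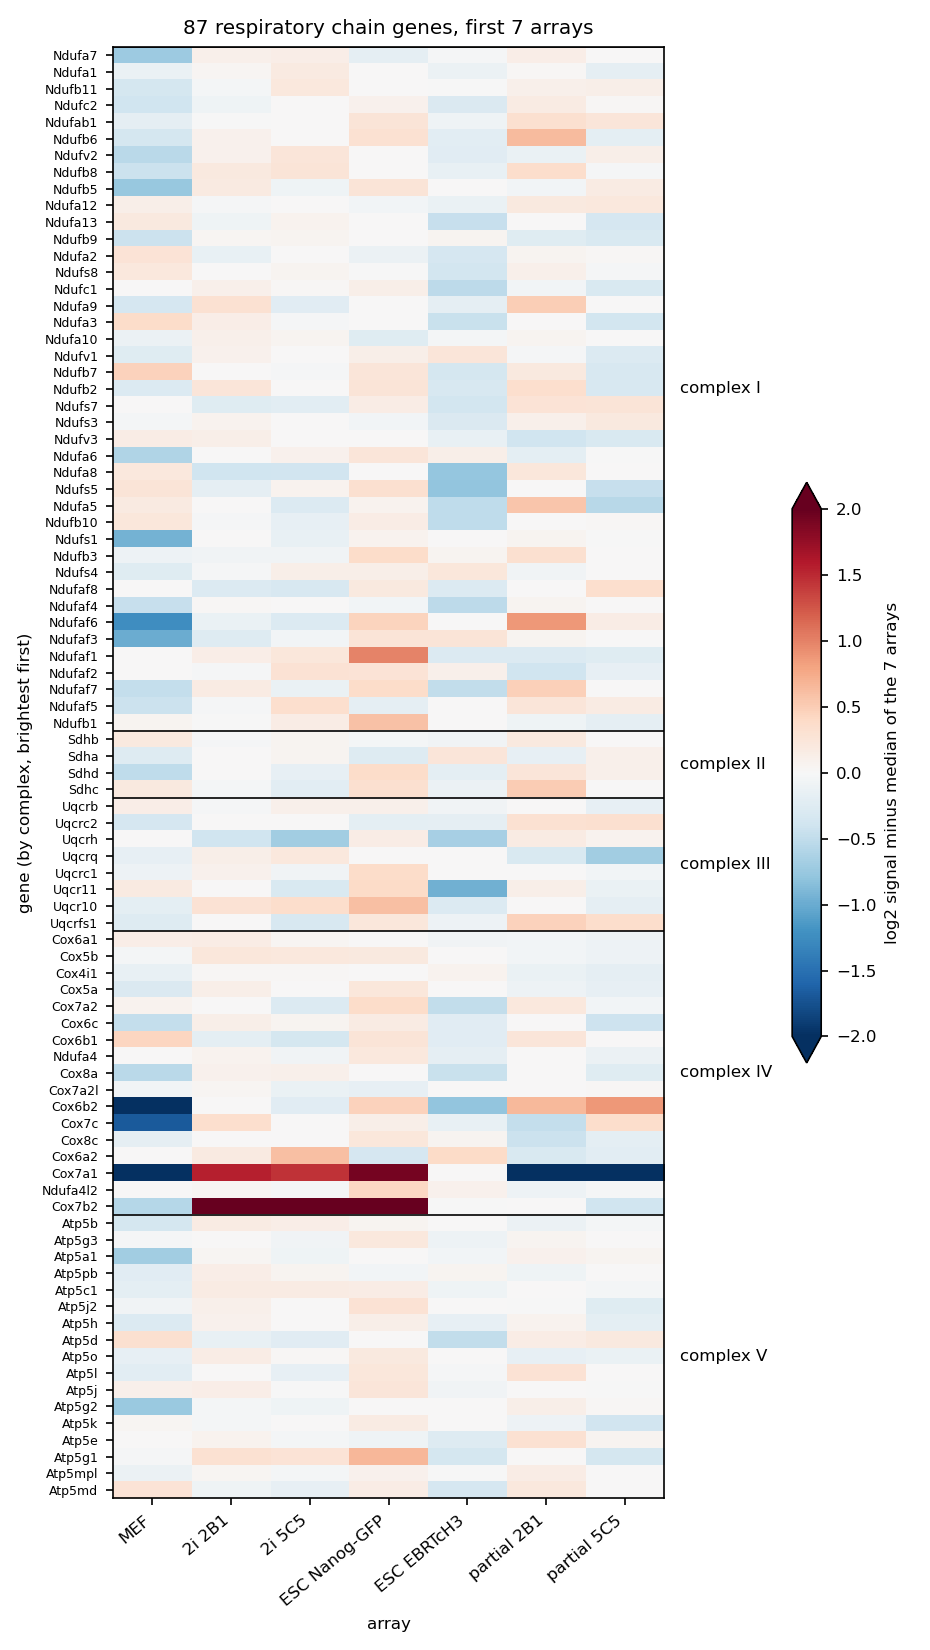
Signal of the 87 tested respiratory chain genes (rows, by complex and then by mean signal) on the first 7 arrays (columns), as log2 signal minus the gene's median over those arrays, with colours capped at 2 in both directions. Most rows stay pale, and the strong colours lie in the complex IV rows Cox7a1, Cox7b2, Cox6b2 and Cox7c and in the MEF column.

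In 2i iPSCs against partial iPSCs, 1 of the 87 respiratory chain genes rose, Cox7a1, and none fell, where 6% of all tested genes passed the same test (3.55% higher and 2.46% lower). Cox7a1 encodes the heart and skeletal muscle form of a small subunit of complex IV. The test was limma on 6 arrays with an adjusted p below 0.05, and at an unadjusted p below 0.05 the count was 2, where 24.3% of all genes passed. The other genes stayed close to 0: the median log2 fold change was 0.05, against 0.03 for all genes, 46 of 87 were above 0, and 78 (89.7%) lay within 0.5 in either direction, against 59.6% of all genes. For 64 of the 87 the 95% confidence interval of the fold change lay inside 2-fold in both directions, against 40.4% of all genes. For the rest the arrays leave room for a larger difference.

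Cox7a1, read by probe set 1418709_at, had signals of 9.11 (2B1) and 9.00 (5C5) in 2i iPSCs, against 4.41 (2B1) and 4.79 (5C5) in partial iPSCs. In ESCs the signals were 9.47 (Nanog-GFP) and 7.55 (EBRTcH3), and the MEF array had 5.29. The 2i and ESC arrays were all above the MEF array and both partial arrays, whose signals lay under the table's median of 5.42, and the EBRTcH3 array was the lowest of the pluripotent arrays. The log2 fold change in 2i iPSCs against partial iPSCs was 4.46 (SE 0.63, 95% interval 2.87 to 6.04, limma adjusted p = 0.0241, n = 2 each). In ESCs against partial iPSCs it was 3.91 (SE 0.63, 95% interval 2.32 to 5.50, limma adjusted p = 0.0174, n = 2 each). The comparisons share the partial arrays. The first call was lost without either partial array or without either 2i array, with limma adjusted p-values of 0.0783 to 0.177 at log2 fold changes of 4.26 to 4.65. The second was lost without either partial array (limma adjusted p = 0.0749 without 2B1 and 0.0566 without 5C5) and without either 2i array (0.058), while without EBRTcH3 its fold change was 4.87 (limma adjusted p = 0.00418) and without Nanog-GFP 2.95 (limma adjusted p = 0.00836). The partial signals lie at the lower end of the scale, where a signal is partly background, so the fold changes are not ratios of mRNA alone.

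Muscle markers were read beside Cox7a1, and their part in its difference was not tested. The summed level of 7 muscle genes (Myog, Myod1, Des, Ckm, Myh3, Tnnt2 and Actc1) was 8.81 to 8.92 in 2i iPSCs, 7.88 to 8.53 in ESCs, 10.52 in MEFs and 8.03 to 8.36 in partial iPSCs. Myog, the myogenic factor myogenin, had 4.34 and 4.58 in 2i iPSCs, 4.71 and 3.84 in ESCs, 5.95 in MEFs, and 4.12 and 4.24 in partial iPSCs. Myh3, the embryonic myosin heavy chain, had 6.75 and 6.47 in 2i iPSCs, 6.47 and 4.79 in ESCs, 7.73 in MEFs, and 4.05 and 4.20 in partial iPSCs. As with Cox7a1, all 2i and ESC arrays were above both partial arrays for Myh3, without a call (limma adjusted p = 0.0683 in 2i iPSCs and 0.131 in ESCs), but unlike Cox7a1 its highest signal was on the MEF array. Tnnt2, cardiac troponin T, had 7.04 and 7.11 in 2i iPSCs, 4.08 and 3.68 in ESCs, 8.35 in MEFs, and 6.36 and 6.54 in partial iPSCs, so it was lowest in ESCs. Myod1, the myogenic factor MyoD, was at or below 4.67 on the first 7 arrays, under the table's median.

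The widely expressed counterpart Cox7a2 had signals of 12.99 and 12.72 in 2i iPSCs, 13.36 and 12.49 in ESCs, 13.06 in MEFs, and 13.21 and 12.93 in partial iPSCs, so both the 2i and the ESC arrays overlapped with the partial arrays, and the MEF array was slightly above both 2i arrays.

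**Figure D2:**
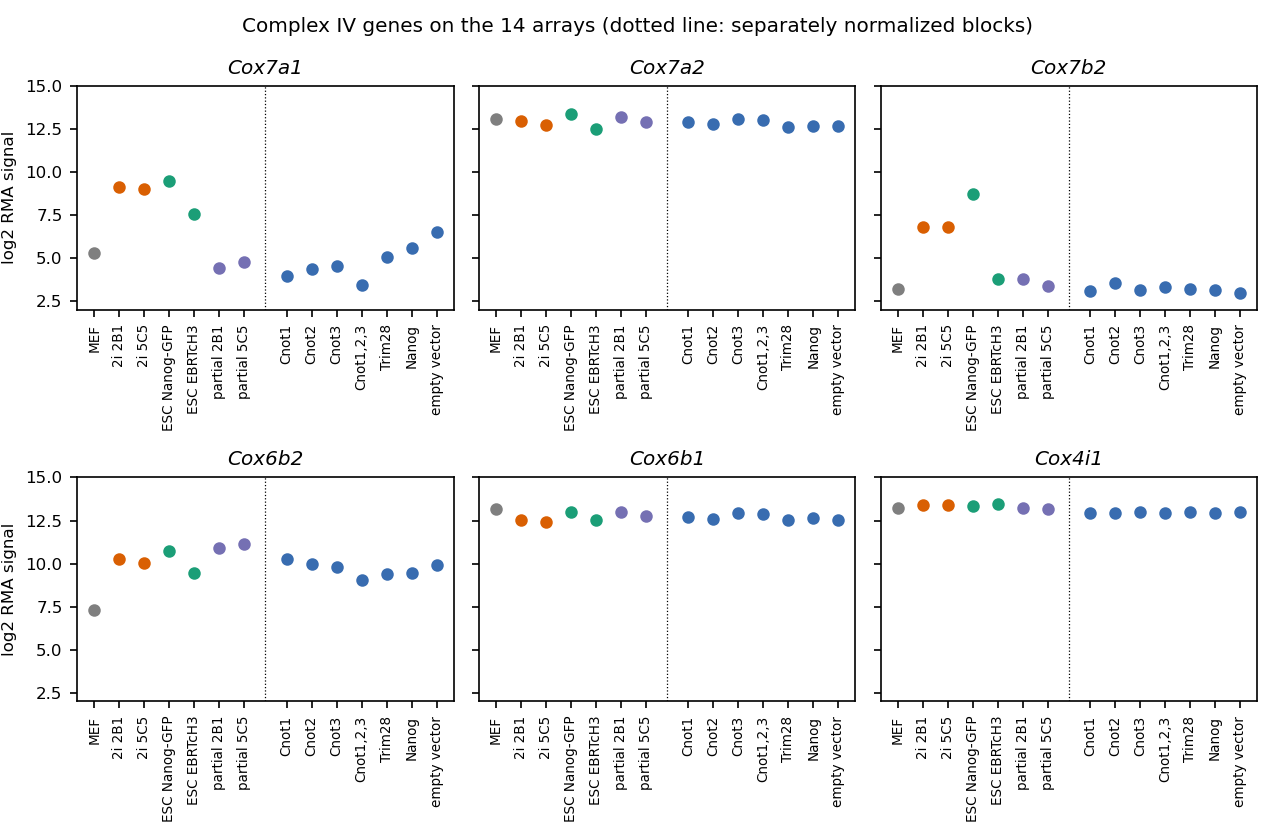
Log2 RMA signal of 3 complex IV subunit forms that varied (Cox7a1, Cox7b2, Cox6b2) and of 3 common forms (Cox7a2, Cox6b1, Cox4i1) on the 14 arrays, 1 point per array, with a dotted line between the blocks treated as separately normalized. In the first block Cox7a1 is at 7.55 or above on the 2i and ESC arrays and at 5.29 or below on the MEF and untreated partial arrays, on the transduced arrays it lies between 3.45 and 6.51, and Cox4i1 stays between 12.93 and 13.43 everywhere.

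The promoters of Cox7a1 and of its widely expressed counterpart Cox7a2 are shown because the genes encode forms of the same subunit and differ in how their signals varied. Both windows are RefSeq sequence of GRCm38.p6, 250 bases before to 50 bases after the annotated start, written 5′ to 3′ on the gene's strand. The Cox7a1 window is chr7:30183921-30184220 on the plus strand, and the Cox7a2 window is chr9:79759804-79760103 on the minus strand. Capitals mark matches, on either strand, to any of 5 motifs: NRF1 (GCGCA, any base, then GCGC), ETS (CCGGAAG), YY1 (AAGATGGC), the CCAAT box (CCAAT) and the GC box (GGGCGG).
Cox7a1: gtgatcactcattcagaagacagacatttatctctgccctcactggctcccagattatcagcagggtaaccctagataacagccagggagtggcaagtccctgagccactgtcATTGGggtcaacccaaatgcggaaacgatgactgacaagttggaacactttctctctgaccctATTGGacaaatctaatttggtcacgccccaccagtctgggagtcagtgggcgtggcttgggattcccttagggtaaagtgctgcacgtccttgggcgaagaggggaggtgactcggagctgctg
Cox7a2: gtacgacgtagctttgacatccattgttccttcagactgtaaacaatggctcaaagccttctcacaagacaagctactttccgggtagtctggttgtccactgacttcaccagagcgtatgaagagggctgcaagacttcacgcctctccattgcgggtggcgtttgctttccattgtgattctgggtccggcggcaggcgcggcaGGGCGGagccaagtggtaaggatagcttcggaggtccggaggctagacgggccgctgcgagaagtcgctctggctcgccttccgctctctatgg
The Cox7a1 window held 2 CCAAT boxes and no match to the other 4 motifs, and the Cox7a2 window held 1 GC box. The Cox7a1 window had 7 CpG dinucleotides, the 2nd lowest count among the windows of the respiratory chain genes, whereas the Cox7a2 window had 20, which is also the median of those windows.

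Cox7b2, a form of the Cox7b subunit known mainly from testis, differed most between the ESC lines. Its signals, from probe set 1429687_at, were 6.83 and 6.82 in 2i iPSCs, 8.72 (Nanog-GFP) and 3.75 (EBRTcH3) in ESCs, 3.19 in MEFs, and 3.76 and 3.36 in partial iPSCs. Both 2i arrays and the Nanog-GFP array were above every other array of the block, and the EBRTcH3 array lay among the partial ones. In 2i iPSCs against partial iPSCs the log2 fold change was 3.26 (SE 1.55, 95% interval -0.66 to 7.18, limma adjusted p = 0.276, n = 2 each), which did not pass the test. The shared spread of the 3 groups includes the gap of 4.96 between the ESC lines. With only the 4 arrays compared, the SE was 0.20 and the limma adjusted p 0.00618, where 11% of all genes passed. With the clone as a replicate block the limma adjusted p was 0.0197, where 6.5% passed. Only the 2i arrays and the Nanog-GFP array reached the table's median, so Cox7b2 was tested only because of groups in which it was high. Its partial signals lie at the lower end of the scale, where a signal is partly background. The fold changes against partial iPSCs are therefore not ratios of mRNA alone. In ESCs against partial iPSCs the log2 fold change was 2.67 (limma adjusted p = 0.291), at 5.16 without EBRTcH3 (limma adjusted p = 0.00404, with 16.6% of all genes called) and 0.19 without Nanog-GFP. The Cox7b2 window is chr5:71548156-71548455 on the minus strand, in the same build and with the same marking.
Cox7b2: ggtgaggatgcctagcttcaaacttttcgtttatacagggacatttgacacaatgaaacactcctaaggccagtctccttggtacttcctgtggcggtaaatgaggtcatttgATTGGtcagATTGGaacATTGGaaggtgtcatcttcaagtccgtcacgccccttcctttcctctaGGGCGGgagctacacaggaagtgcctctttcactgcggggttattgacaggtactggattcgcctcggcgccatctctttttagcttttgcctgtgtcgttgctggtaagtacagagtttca
It held 3 CCAAT boxes, 1 GC box and 10 CpG dinucleotides, and no match to the NRF1, ETS or YY1 motif.

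Cox6b2, a testis form of Cox6b, had its highest signals in partial iPSCs. Its signals, from probe set 1435275_at, were 10.26 and 10.04 in 2i iPSCs, 10.71 (Nanog-GFP) and 9.47 (EBRTcH3) in ESCs, 7.30 in MEFs, and 10.91 and 11.13 in partial iPSCs. Both partial arrays were above all others in the block, and the MEF array was far below them. The log2 fold change was -0.87 in 2i iPSCs against partial iPSCs (SE 0.43, 95% interval -1.96 to 0.23, limma adjusted p = 0.297) and -0.93 in ESCs against partial iPSCs (SE 0.43, 95% interval -2.02 to 0.17, limma adjusted p = 0.206, n = 2 each). Without Nanog-GFP the ESC comparison passed, at -1.55 (limma adjusted p = 0.022, where 18.4% of all genes passed). The widely expressed Cox6b1 had 12.55 and 12.39 in 2i iPSCs, 13.00 and 12.53 in ESCs, 13.17 in MEFs, and 12.99 and 12.74 in partial iPSCs. The promoters of the pair are on chromosome 7 and the minus strand, at chr7:4753045-4753344 for Cox6b2 and chr7:30626065-30626364 for Cox6b1, in the same build and with the same marking.
Cox6b2: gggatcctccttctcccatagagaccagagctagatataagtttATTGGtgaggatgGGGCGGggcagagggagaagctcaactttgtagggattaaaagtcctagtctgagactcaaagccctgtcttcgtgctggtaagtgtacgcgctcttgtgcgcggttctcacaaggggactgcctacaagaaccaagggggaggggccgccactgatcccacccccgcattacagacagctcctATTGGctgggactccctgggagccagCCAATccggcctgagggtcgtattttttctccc
Cox6b1: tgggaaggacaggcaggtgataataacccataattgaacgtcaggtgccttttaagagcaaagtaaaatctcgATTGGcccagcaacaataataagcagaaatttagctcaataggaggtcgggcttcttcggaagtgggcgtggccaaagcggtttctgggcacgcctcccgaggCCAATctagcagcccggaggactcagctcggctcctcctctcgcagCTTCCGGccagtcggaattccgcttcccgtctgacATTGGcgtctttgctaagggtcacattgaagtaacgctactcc
Both windows held 3 CCAAT boxes. The Cox6b2 window also held 1 GC box and had 10 CpG dinucleotides, and the Cox6b1 window held 1 ETS match and had 17.

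The other tissue forms and paralogs of complex IV and the c-ring genes of complex V varied less over the first 7 arrays than Cox7a1, Cox7b2 and Cox6b2. Cox6a2, a heart and muscle form, had 6.64 and 7.06 in 2i iPSCs, 6.13 and 6.84 in ESCs, 6.46 in MEFs, and 6.15 and 6.24 in partial iPSCs, with both 2i arrays above both partial arrays and the ESC arrays spanning them. Cox8c, a testis form, had 7.57 and 7.56 in 2i iPSCs, 7.78 and 7.62 in ESCs, 7.39 in MEFs, and 7.14 and 7.37 in partial iPSCs, with all 2i and ESC arrays above both partial arrays. Cox8a, the common form of the same subunit, ranged from 11.96 to 12.60 over the first 7 arrays. Ndufa4, a complex IV subunit despite its name, ranged from 12.27 to 12.65, and its hypoxia-induced paralog Ndufa4l2 from 5.54 to 6.05. The 3 genes that encode the same c-ring protein of ATP synthase ranged from 11.53 to 12.55 (Atp5g1), 11.56 to 12.42 (Atp5g2) and 13.11 to 13.43 (Atp5g3). Atp5g1 had 12.19 and 12.16 in 2i iPSCs, above 11.89 and 11.53 in partial iPSCs, with the ESC arrays at 12.55 and 11.53.

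By complex, the 41 tested complex I genes had a median log2 fold change of -0.01 in 2i iPSCs against partial iPSCs, with 39 within 0.5 in either direction and none called. Among them, the 6 core subunits, which carry the electron path, had fold changes from -0.49 to 0.19, the 27 supernumerary subunits, which stabilise the complex, from -0.51 to 0.41, and the 8 assembly factors from -0.71 to 0.43. The lowest was Ndufaf6, with signals of 8.98 and 8.85 in 2i iPSCs, against 9.99 and 9.27 in partial iPSCs (log2 fold change -0.71, SE 0.31, limma adjusted p = 0.247). Both 2i arrays were below both partial arrays. The 4 subunits of complex II, succinate dehydrogenase, lay between -0.38 and 0.06, and the 17 genes of complex V between -0.36 and 0.46. Complex III was the most spread outside complex IV, with 5 of 8 genes within 0.5 and a range of -0.66 to 0.66. At its ends, Uqcrq, a small subunit, had 12.14 and 12.24 in 2i iPSCs, against 11.72 and 11.34 in partial iPSCs, and Uqcrh, the hinge subunit, had 11.80 and 11.51 in 2i iPSCs, against 12.36 and 12.28 in partial iPSCs. The groups did not overlap in either gene. The Rieske iron-sulfur subunit Uqcrfs1 had 11.05 and 10.73 in 2i iPSCs, against 11.51 and 11.40 in partial iPSCs, again without overlap, and none of these 3 genes passed the test. The share of all genes without overlap was not counted. Such a gap, in these genes, Ndufaf6 or others, is therefore not read as particular to them.

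**Figure D3:**
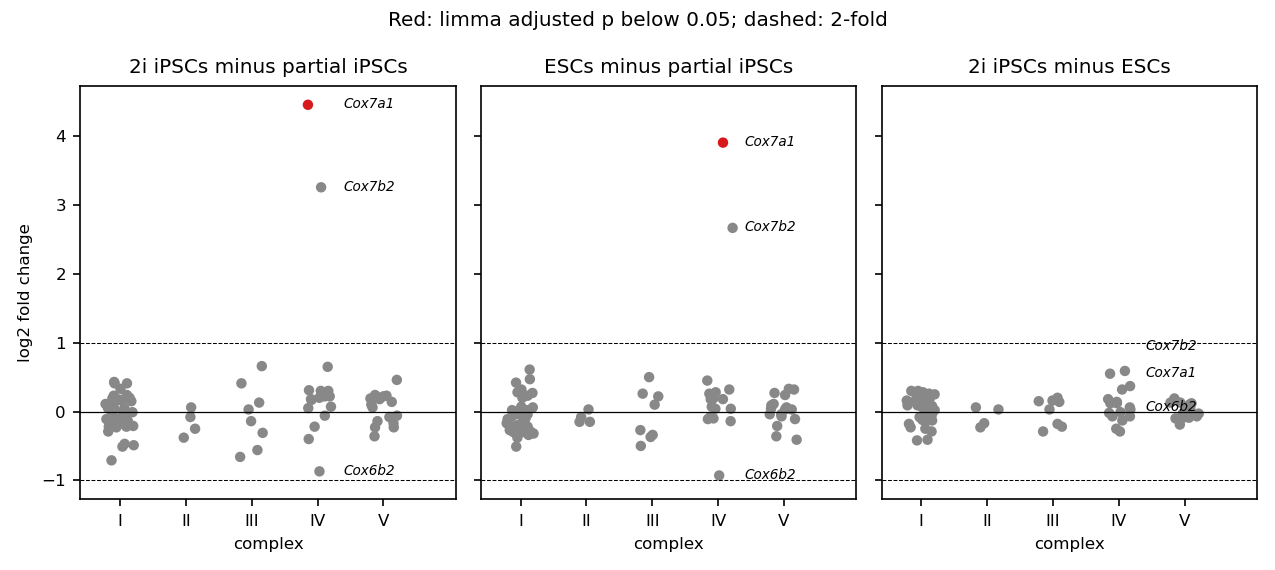
Log2 fold changes of the 87 tested respiratory chain genes by complex (1 point per gene, spread sideways for legibility) for 2i iPSCs minus partial iPSCs, ESCs minus partial iPSCs and 2i iPSCs minus ESCs, with red for a limma adjusted p below 0.05 and dashed lines at 2-fold. Cox7a1 is the red point at 4.46 and at 3.91, and in the comparison of 2i iPSCs with ESCs all genes lie between -0.42 and 0.59.

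In ESCs against partial iPSCs, 1 of 87 genes rose, again Cox7a1, and none fell, where 15.9% of all genes were called (6.09% higher and 9.82% lower). The median log2 fold change was -0.04, against 0.00 for all genes, and 80 of 87 (92.0%) were within 0.5, against 51.2% of all genes. The 95% interval lay inside 2-fold for 67 of 87, against 35.4% of all genes. At an unadjusted p below 0.05 the count was 2, where 32.7% of all genes passed, the other being Uqcrc2, a core-protein subunit of complex III. Uqcrc2 had 11.71 and 11.71 in ESCs, against 12.20 and 12.21 in partial iPSCs, with the 2i arrays between them at 11.89 and 11.91, and it was called only with an intensity trend in the fit (limma adjusted p = 0.038, where 16.2% of all genes were called). Complex I had 14 of 41 genes above 0 with a median of -0.11, and complex IV had 12 of 17 above 0 with a median of 0.18. Both medians were smaller in size than the median difference between the ESC arrays, 0.31 in complex I and 0.32 in complex IV. The share of all genes above 0 was not counted, so these directions are not read as particular to the complexes.

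Between 2i iPSCs and ESCs no respiratory chain gene was called by limma and none had an unadjusted p below 0.05, where 3.85% of all genes were called (3.69% higher and 0.158% lower) and 15.9% had an unadjusted p below 0.05. The median log2 fold change was 0.05, against 0.00 for all genes, 85 of 87 (97.7%) were within 0.5, against 69.3% of all genes, and 75 of 87 had a 95% interval inside 2-fold, against 46.0%. Intervals were wide for the genes with the largest gaps between the ESC lines. For Cox7b2 the log2 fold change was 0.59 with a 95% interval of -3.33 to 4.51, and for Cox7a1 it was 0.55 with an interval of -1.04 to 2.14. Cox7b2 took opposite signs against the single ESC lines: it was called at 3.07 without Nanog-GFP (limma adjusted p = 0.014, with 6.21% of all genes called) and at -1.89 without EBRTcH3 (limma adjusted p = 0.0393, with 3.96% called).

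The MEF group has 1 array, so its comparisons have no replicate check and use a fixed size, at least 2-fold from both arrays of the other group. No respiratory chain gene was that much higher in MEFs than in any group. Lower were 3 genes against partial iPSCs (Cox6b2, Cox7c and Ndufaf6), where 11.3% of all genes were lower and 9.9% higher. Against ESCs 5 were lower (Cox6b2, Cox7a1, Cox7c, Ndufaf3 and Ndufaf6), where 15.2% of all genes were lower and 15.4% higher. Against 2i iPSCs 4 were lower (Cox6b2, Cox7a1, Cox7b2 and Cox7c), where 16.8% of all genes were lower and 11.5% higher. These shares lie below those of all genes.

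Cox6b2 had 7.30 in MEFs, against 9.47 to 11.13 on the 6 other arrays of the block. Cox7c, a small complex IV subunit, had 5.74 in MEFs, against 7.76 and 7.43 in 2i iPSCs, 7.55 and 7.28 in ESCs, and 6.95 and 7.79 in partial iPSCs. Its other probe set, 1459884_at, had 3.91 in MEFs and 5.52 to 6.67 on the 6 other arrays, so both put the MEF array lowest. Ndufaf6 had 7.87 in MEFs, against 8.85 to 9.99 on the other 6, and the assembly factor Ndufaf3 had 8.40, against 9.14 to 9.66. The iron-sulfur core subunit Ndufs1 had 10.05 in MEFs, against 10.85 to 11.08 on the other 6, at least 2-fold below the Nanog-GFP ESC and the 2B1 partial array and less than 2-fold below the rest.

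Over the whole group, signals in MEFs leaned lower than those of all genes by a small amount. Of the 87 genes, 49 (56.3%) were below both partial arrays, against 44.2% of all genes, 47 (54.0%) were below both ESC arrays, against 45.6%, and 54 (62.1%) were below both 2i arrays, against 49.6%. The median difference was -0.11 from partial iPSCs, -0.22 from ESCs and -0.18 from 2i iPSCs, against -0.07, -0.11 and -0.09 for all genes. The 8 assembly factors of complex I had larger medians, of -0.55, -0.35 and -0.48 in the same order. When limma was given the lone MEF array, assuming that it varies like the other groups, it called 4, 6 and 3 genes in that order, all lower, where 13%, 28.4% and 16.5% of all genes were called.

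The 2 arrays of a group also differed from each other, most in the ESCs. The Nanog-GFP array was higher than the EBRTcH3 array in 74 of the 87 genes, against 52.7% of all genes, with a median difference of 0.28, against 0.04. In 7 genes it was at least 2-fold higher and in none at least 2-fold lower, where 15.8% of all genes were at least 2-fold apart in either direction. They were Cox7b2 (4.96), Cox7a1 (1.91), Uqcr11 (1.35), Ndufaf1 (1.26), Cox6b2 (1.25), Ndufs5 (1.12) and Atp5g1 (1.03). Uqcr11 and Ndufs5 are small subunits of complexes III and I, and Ndufaf1 is an assembly factor of complex I. Line and strain background differ between these arrays, and their part in the difference was not tested.

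In partial iPSCs, the 2B1 array was higher than the 5C5 array in 62 of 87 genes (50.2% of all genes were), with a median difference of 0.09, against 0.00. One gene was at least 2-fold apart, where 10.6% of all genes were: Ndufa5, a supernumerary subunit of complex I, with 11.34 in 2B1 and 10.22 in 5C5. Ndufb6 had 12.62 and 11.79, and Cox7c 6.95 and 7.79, in the same order. In 2i iPSCs, 2B1 was higher in 54 of 87 genes (49.3% of all genes), no gene was 2-fold apart, where 1.73% of all genes were, and the median difference was 0.06, against -0.01. There the 2B1 array was higher in 14 of 17 genes of complex IV and 15 of 17 of complex V, and in 19 of 41 of complex I, and the largest differences were those of Ndufa9 (0.53), Cox6a2 (-0.42) and Ndufaf5 (-0.36).

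**Figure D4:**
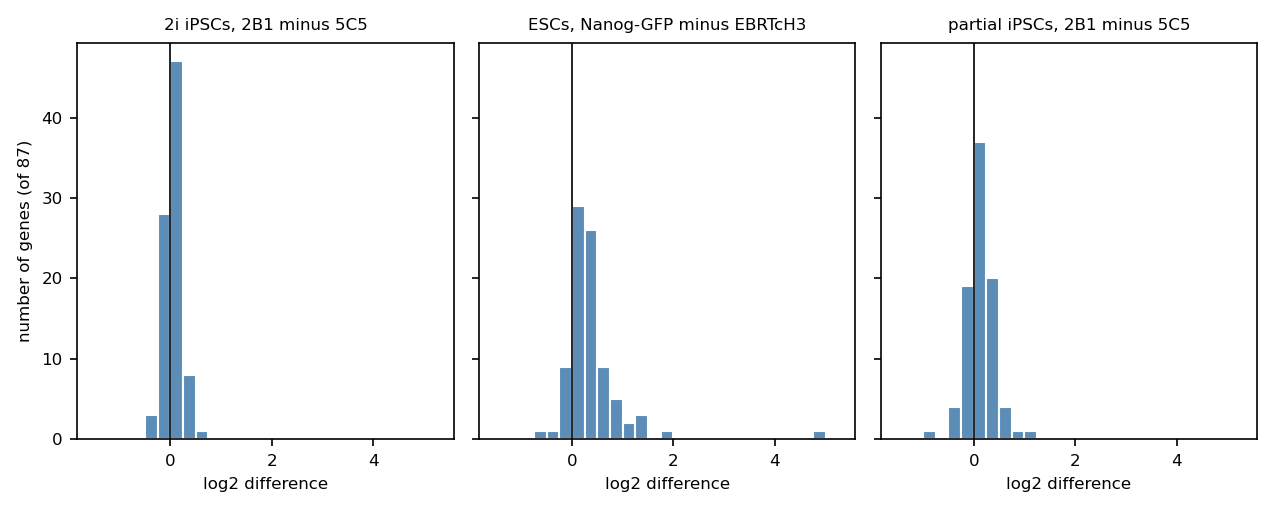
Distribution of the log2 difference between the 2 arrays of a group over the 87 tested respiratory chain genes, in bins of 0.25, for 2i iPSCs and partial iPSCs (2B1 minus 5C5) and ESCs (Nanog-GFP minus EBRTcH3). The ESC panel is shifted to the right, with a median of 0.28, and holds Cox7b2 at 4.96, while the 2i panel is the narrowest.

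In 2B1 partial iPSCs carrying a factor, each compared with the empty vector array of the same block, Cox7a1 was the one respiratory chain gene past 2-fold. The genes of the factors give no check of these labels: on the brightest probe sets Cnot2 had 9.69 on the array labelled Cnot2, against 10.01 with empty vector, Cnot3 had 9.01 on its own, against 8.95, Trim28 had 11.97, against 11.98, and Nanog had 3.12, against 4.11. Over all probe sets of these 4 genes the highest difference on the array named for them was 0.30. An introduced cDNA need not contain the stretch a probe set reads, so every direction below is that of the array labelled with a factor. There is 1 array per condition, with no test.

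Cox7a1 had 3.97 on the array labelled Cnot1, 4.34 on Cnot2, 4.53 on Cnot3, 3.45 on Cnot1,2,3, 5.06 on Trim28 and 5.56 on Nanog, against 6.51 with empty vector. The empty vector array was the highest of the 7, and all signals but those of empty vector and Nanog lay below the table's median. The log2 differences from empty vector were -2.53 for Cnot1, -2.17 for Cnot2, -1.97 for Cnot3, -3.06 for Cnot1,2,3, -1.45 for Trim28 and -0.95 for Nanog. All 6 share the single empty vector array, so its level enters each of them. Per the series text, empty vector and Nanog were stably integrated, whereas the Cnot and Trim28 factors were brought in by retrovirus infection, and for Cox7a1 these stable arrays were the highest and second highest of the 7. For the 5 arrays labelled with Cnot genes or Trim28, factor and mode of delivery cannot be told apart. The shares of all genes at least 2-fold apart were 10% for Cnot1, 6.75% for Cnot2, 7.68% for Cnot3, 12.1% for Cnot1,2,3, 2.49% for Trim28 and 1.43% for Nanog, and 5.87%, 3.89%, 5.19%, 8.43%, 1.52% and 0.869% were lower in that order. Cox7b2 stayed between 2.98 and 3.53 on all 7 arrays.

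All other tested respiratory chain genes were within 2-fold of empty vector on every array. The median size of the difference over the 87 genes was 0.15 for Cnot1, 0.12 for Cnot2, 0.19 for Cnot3, 0.23 for Cnot1,2,3, 0.08 for Trim28 and 0.06 for Nanog, against 0.31, 0.24, 0.26, 0.33, 0.20 and 0.13 for all genes. Past 1.5-fold were 4, 2, 4, 8, 1 and 1 genes in that order, Cox7a1 included, where 23.7%, 17.1%, 18.9%, 27.2%, 9.86% and 5.13% of all genes were. Ndufaf8, an assembly factor of complex I, had 10.08 on the array labelled Cnot1, 10.27 on Cnot2, 10.36 on Cnot3 and 10.33 on Cnot1,2,3, against 10.95 with empty vector, and was lower by more than 1.5-fold on all 4. Nanog had 10.81 and Trim28 10.57, so the empty vector array was the highest of the 7. The 4 differences share that single array, and the share of all genes lower on all 4 was not counted. Ndufa5 had 11.31 on Cnot3 and 11.49 on Cnot1,2,3, against 10.67 with empty vector. Cox6b2 and Ndufa6, a supernumerary subunit of complex I, had 9.03 and 10.44 on Cnot1,2,3, against 9.90 and 11.32 with empty vector.

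**Figure D5:**
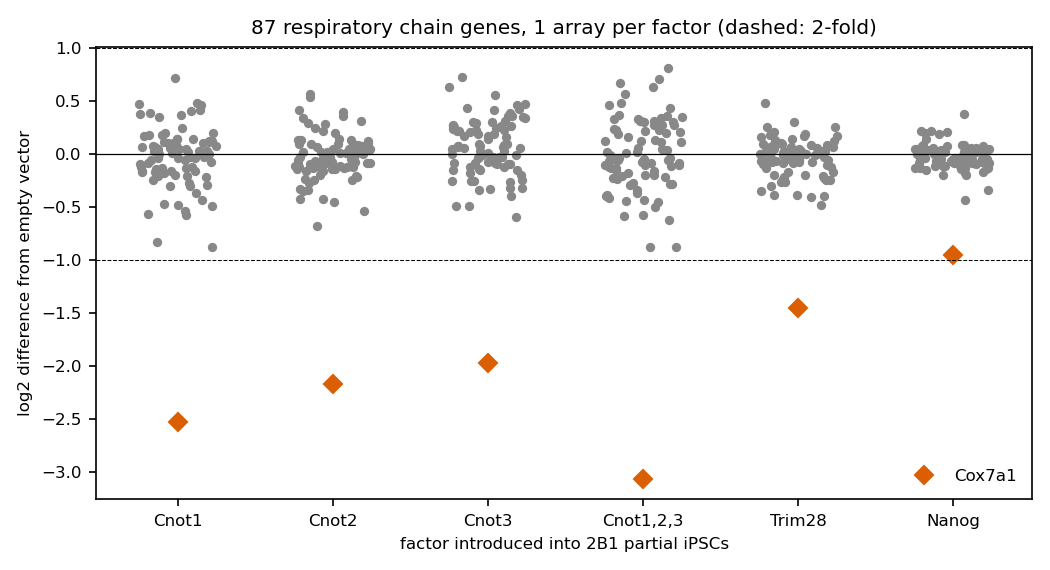
Log2 difference from the empty vector array for the 87 tested respiratory chain genes on each array of transduced 2B1 partial iPSCs, 1 grey point per gene and an orange diamond for Cox7a1, with dashed lines at 2-fold. Cox7a1 lies between -3.06 and -0.95, and the grey points stay inside 2-fold.

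Genes around the respiratory chain were counted in 5 lists of related genes. The first list held the electron and ADP/ATP carrier genes Cycs, Cyct, Slc25a4, Slc25a5 and Slc25a31. It also held Slc25a3, Vdac1, Vdac2, Vdac3 and Atpif1, which are not such carriers. Of these 10 genes, 2 rose and none fell in 2i iPSCs against partial iPSCs, and 2 rose and 1 fell in ESCs. Over all tested genes 3.55% rose and 2.46% fell in 2i iPSCs, and 6.09% rose and 9.82% fell in ESCs, and the counts of the lists below are to be read against the same shares. Cyct, the testis form of cytochrome c, had 9.75 and 9.91 in 2i iPSCs, 8.90 and 8.04 in ESCs, 5.05 in MEFs, and 5.64 and 5.23 in partial iPSCs. Its log2 fold change was 4.39 in 2i iPSCs (SE 0.34, limma adjusted p = 0.00642) and 3.03 in ESCs (limma adjusted p = 0.00668). Slc25a31, a testis form of the ADP/ATP carrier, had 7.85 and 8.29 in 2i iPSCs, 7.38 and 5.50 in ESCs, 3.39 in MEFs, and 3.25 and 2.61 in partial iPSCs. Its log2 fold change was 5.14 in 2i iPSCs (SE 0.65, limma adjusted p = 0.0188) and 3.51 in ESCs (limma adjusted p = 0.026). In both genes all 2i and ESC arrays were above the partial arrays. Slc25a31 reached the table's median only on the 2i and ESC arrays, and Cyct only on these and the partial 2B1 array. Both were therefore tested only because of groups in which they were high. The partial signals of Slc25a31 lie at the lower end of the scale, where a signal is partly background. Its fold changes are therefore not ratios of mRNA alone. The partial signals of Cyct lay near the table's median. Slc25a4, the heart and muscle form of the ADP/ATP carrier, fell by 1.35 in ESCs (limma adjusted p = 0.0482). With single arrays left out the Cyct call in 2i iPSCs was lost without either 2i array (limma adjusted p = 0.0765 and 0.088) and the Slc25a31 call without any 2i or partial array (0.0572 to 0.16). In ESCs the Slc25a31 call was lost without any 2i or partial array (limma adjusted p = 0.0714 to 0.0932), and the Slc25a4 call without any of these or EBRTcH3 (0.0861 to 0.152).

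Of 27 tested assembly factors outside the chosen names, 1 rose in each comparison with partial iPSCs and none fell, where 6% of all genes were called in 2i iPSCs and 15.9% in ESCs: Cox11, a copper chaperone of complex IV, at 1.24 in 2i iPSCs (limma adjusted p = 0.0494) and 1.38 in ESCs (limma adjusted p = 0.0211). The 2i call was lost with the intensity trend (limma adjusted p = 0.0504), with arrays centred on their medians (0.0551), with the replicate block (0.0546) with the mean of the gene's probe sets (0.114) and without any 2i or partial array (0.0997 to 0.316), and the ESC call also without any of those arrays (0.0594 to 0.0768). Of 14 genes of mitochondrial transcription and its regulators, none was called in 2i iPSCs against partial iPSCs, where 6% of all genes were, and 2 were called in ESCs, where 15.9% were. In ESCs Gabpa, a subunit of NRF2, rose by 1.15 (limma adjusted p = 0.0167) and Ppargc1a, the coactivator PGC-1 alpha, fell by 2.67 (limma adjusted p = 0.00399). Ppargc1a had 7.13 and 6.62 in 2i iPSCs, 3.55 and 3.48 in ESCs, 4.52 in MEFs, and 6.32 and 6.03 in partial iPSCs, with the ESC arrays below all others. Its ESC signals lie at the lower end of the scale, where a signal is partly background. Fold changes that involve them are therefore not ratios of mRNA alone. Only the 2i and partial arrays reached the table's median, so Ppargc1a was tested only because of groups in which it was high. Against ESCs it was higher in 2i iPSCs by 3.36 (limma adjusted p = 0.00437), a call lost without either 2i array (0.0648 and 0.0684). The Gabpa call was lost without partial 2B1 (0.065) and without either 2i array (0.0744).

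Of 20 tested genes of pyruvate dehydrogenase and the citric acid cycle, 1 rose in 2i iPSCs against partial iPSCs, and 1 rose and 1 fell in ESCs, where 6% and 15.9% of all genes were called. Pdk4, a kinase that switches pyruvate dehydrogenase off, had 5.70 and 4.80 in 2i iPSCs, 6.62 and 6.65 in ESCs, 7.58 in MEFs, and 3.31 and 3.33 in partial iPSCs. Its log2 fold change was 1.93 in 2i iPSCs (limma adjusted p = 0.0362, and 0.0589 with the replicate block) and 3.31 in ESCs (limma adjusted p = 0.00458). Pdk4 reached the table's median only on the ESC and MEF arrays and the 2i array of 2B1. It was therefore tested only because of arrays on which it was high. Its partial signals lie at the lower end of the scale, where a signal is partly background. These fold changes are therefore not ratios of mRNA alone. Pdk2, a kinase of the same kind as Pdk4, fell by 0.99 in ESCs (limma adjusted p = 0.0441). Its ESC signals, 4.89 and 4.70, lay under the table's median. The Pdk4 call in 2i iPSCs was lost without any 2i or partial array (limma adjusted p = 0.0893 to 0.167), and the Pdk2 call without any single array (0.0618 to 0.131). Of 3 uncoupling proteins, 1 was bright enough to test and it was not called in any comparison.

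Promoter windows of 300 bases were found in the RefSeq table for 74 of the 90 genes, 79 windows in all, and were searched on both strands for the 5 motifs above, where matches to different motifs may overlap. The NRF1 motif was in 18 of the 79 windows (22.8%), against 4.6% of the 32851 windows of all genes and 9.5% of the 13079 windows of tested genes. The ETS motif was in 19 (24.1%), against 8.9% and 16.4%, and the YY1 motif in 10 (12.7%), against 2.7% and 4.1%. NRF1, the ETS factor NRF2 and YY1 are known regulators of respiratory chain genes. The CCAAT box was in 33 (41.8%), against 37.4% and 37.6%, and the GC box in 36 (45.6%), against 35.7% and 61.7%. The windows of Cox7a1, Cox7b2 and Cox6b2, with 7, 10 and 10 CpG dinucleotides, of Cox8b, with 2, and of Ndufc2, with 8, were the 5 lowest, where the median was 20 for the respiratory chain windows, 20 for tested genes and 7 for all genes. Ndufc2 is a complex I subunit with signals of 12.03 to 12.58 over the first 7 arrays. Whether the CpG count goes with how much a gene varied was not tested. A match is a run of letters and not a shown binding site, and a window without one says nothing of the factor.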

How the data were processed

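The deposited values are log2 probe set signals of 45101 probe sets, made with RMA and the affy package per the submitters' processing notes; the sources used here give no versions and no genome build. RMA corrects background, quantile-normalizes and summarises probes on the log2 scale. By their distributions, the deposited log2 values form 2 blocks of 7 arrays (sorted values differed by a median range of 0.085 and 0.096 within blocks, against 0.318 over all 14), treated as separately normalized.

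Of the probe sets, 34945 name 1 gene in the platform annotation, 932 several, 9160 none and 64 are controls. Each of 18193 genes was read from its probe set of highest mean over the 14 arrays, and 12663 with at least 2 arrays at the table's median of 5.42 were tested. All 90 respiratory chain genes matched RefSeq (GRCm38.p6). Of these, 39 have 1 probe set and 51 several; 13 of the chosen probe sets end in s and 5 in x, marks of probes that may also bind other transcripts.

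The 3 groups with 2 arrays were fitted together in limma 3.58.1 (R 4.3.3; lmFit and eBayes, 3 residual and 2.25 prior degrees of freedom), two-sided, with Benjamini-Hochberg adjustment over all tested genes and a call at an adjusted p below 0.05. The script was tested on simulated data. The arrays of a group are different clones or lines, whose spread is what the p-values reflect, and no culture was repeated. Conditions with 1 array were described by a fixed 2-fold rule without a test. The 2i and partial arrays of a clone are the same cell line and so are paired; the correlation of their deviations from the group means was 0.111 across genes, and the fit was repeated with clone as a replicate block. Other alternatives were other scalings, filters and probe set rules, an intensity trend, only the compared arrays, leaving out each array, and a 1.5-fold rule.

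Genes named are those called or past 2-fold, every measured paralog of a subunit, the extremes of mean signal and of differences within a group, and called genes of the related lists; other examples were chosen after their values were seen. The respiratory chain genes and all lists were chosen with earlier results of these data known. Precision is limited by the number of arrays.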

Additional observations from a re-analysis of the deposited data

Results flagged for a closer look

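In 2 genes the 2i array and the untreated array of a clone differed in opposite directions in the 2 clones, by at least 0.25 on the log2 scale in each. Cox7c was higher under 2i by 0.81 in clone 2B1 and changed by -0.36 in clone 5C5, which leaves 1.17 between the clones. Ndufa5 differed by -0.56 in 2B1 and by 0.27 in 5C5, which leaves -0.84 between the clones. In both, the untreated arrays were further apart than the 2i arrays: Cox7c had 7.76 (2B1) and 7.43 (5C5) under 2i, against 6.95 (2B1) and 7.79 (5C5) untreated, and Ndufa5 had 10.78 and 10.50 under 2i, against 11.34 and 10.22 untreated in that order. The size of 0.25 was chosen after seeing the data, and opposite signs of any size occurred in 19 of the respiratory chain genes. The shares of all tested genes with opposite signs were not counted, so neither count is read as particular to these genes. With 1 array for each clone and condition, the difference between the clones was not tested.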

How the results depend on the processing

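The call of 1 gene in 2i iPSCs against partial iPSCs (Cox7a1) became 0 with a stricter filter on dim genes, which leaves 80 of the respiratory chain genes and drops Cox7a1, 2 with only the 4 arrays compared and 2 with the clone as a replicate block (Cox7a1 and Cox7b2), and ranged from 0 to 2 when each array was left out in turn. In ESCs against partial iPSCs the 1 call became 0 with the stricter filter, 0 with only the 4 arrays compared and 2 with the intensity trend, which added Uqcrc2 at -0.50 (limma adjusted p = 0.038, where 16.2% of all genes were called), and ranged from 0 to 3 when each array was left out. In 2i iPSCs against ESCs the count of 0 became at most 1, with either ESC array left out. With a 1.5-fold rule the MEF array differed from both partial arrays in 12 genes, from both ESC arrays in 10 and from both 2i arrays in 17. The share of all genes past 1.5-fold on the MEF array was not counted, so these counts show only how the rule changes the number. The same rule gave 4 genes for the array labelled Cnot1, 2 for Cnot2, 4 for Cnot3, 8 for Cnot1,2,3 and 1 for Nanog, and left Trim28 at 1. Signs turned in 5 cases, the first against partial iPSCs and the others for 2i iPSCs against ESCs: Ndufaf6 in ESCs was at 0.07 without partial 2B1 (lowest -0.65 with single arrays left out), Cox6b2 at -0.05 without the 2i array of 2B1 and at -0.57 without EBRTcH3 (highest 0.68), Cox7a1 at -0.41 (highest 1.5) and Cox7b2 at -1.89 (highest 3.07) without EBRTcH3. Of 318 alternatives for single genes, 245 kept direction and side of the threshold, 61 lost a call, 7 gained one and 5 turned sign. The causes were not tested, other than that leaving out arrays and stricter filters reduce what is fitted. Cox7a1, Cox7b2 and Cox6b2 each rest on 1 probe set. The block changed 2 other calls, those of Cox11 and Pdk4.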
